A study of Mus musculus with 10 samples.

Results

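The Kruppel-like factors are zinc-finger transcription factors, and 10 of their genes were followed here across sorted blood progenitors of mice with and without Runx1. The members were Klf1, Klf2, Klf3, Klf4, Klf5, Klf6, Klf7, Klf9, Klf10 and Klf13, taken from the deposited table by gene symbol alone. They are 10 of its 23240 genes and 10 of its 17 Klf genes. A filter of at least 1 RPKM (reads scaled to gene length and library size) in at least 2 libraries kept 10905 genes for testing. It kept 9 of the 10 members and left out Klf5.

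The proteins of this family share 3 C-terminal zinc fingers that bind GC-rich and CACCC DNA elements, and they differ in the N-terminal part that recruits coactivators or corepressors. KLF1 activates globin, heme and red cell membrane genes, and KLF3 is a repressor that KLF1 itself switches on in erythroid cells. KLF4 supports monocyte differentiation, KLF2 holds leukocytes in a quiescent state, KLF10 and KLF6 respond to TGF-beta and other signals, and KLF9 and KLF13 are broadly expressed members that recruit the SIN3A corepressor.

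RNA was sequenced from bone-marrow cells of mice that all carried the Tg(vav-Cre) transgene, which expresses Cre recombinase in blood cells and their precursors. Wild-type mice were Runx1+/+ and deleted mice were Runx1fl/fl, so that the controls carried Cre but no floxed allele. All cells were gated as lin- sca- kit+ CD41- CD105-, and the gates then differed in CD16/32 and CD150. GMP, granulocyte and monocyte progenitors, were CD16/32+ CD150-, and MEP, megakaryocyte and erythroid progenitors, were CD16/32- CD150+. XMP is the name given in the labels to CD16/32+ CD150+ cells, which were sequenced from deleted mice alone. The 5 groups held 2 libraries each: wild-type GMP, deleted GMP, wild-type MEP, deleted MEP and XMP. The labels give neither age nor sex of the mice. Whether the 2 libraries of a group are from different animals is not stated, and p-values here cover the spread between those libraries, which may be technical.

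Read totals per library, worked back from the RPKM values, ranged from 20.8 to 54.9 M. RNA of whole Runx1 stood at 17.2 to 28.5 RPKM in the 4 wild-type libraries and at 36.8 to 85.9 RPKM in the 6 deleted ones, so a whole-gene value does not check the deletion. Lineage genes went with the gates: Mpo, a granule enzyme, was at 3743 to 5644 RPKM in GMP and at 6.42 to 76.9 RPKM in MEP and XMP. Gata1, the erythroid and megakaryocytic regulator, was at 7.94 to 11.6 RPKM in GMP and at 103 to 128 RPKM in MEP and XMP. Of the genes behind the sort, Slamf1 (CD150) was at 0.0934 to 1.38 RPKM in GMP and 8.93 to 30.9 RPKM in MEP and XMP. In XMP, Fcgr2b (CD32) was at 58.2 and 73.8 RPKM, while Fcgr3 (CD16) was at only 1.64 and 2.12 RPKM. Itga2b (CD41) was at 652 and 682 RPKM in XMP, although the cells were gated as CD41-. Libraries also differed in how long genes stood against short ones: the median log2 deviation of genes of at least 4617 bp minus that of genes of at most 1539 bp was -0.94 in wild-type MEP replicate 1 and -0.38 to 0.51 in the other 9 libraries. The column headers place wild-type MEP replicate 1 and wild-type GMP replicate 1 in lane 3, wild-type GMP replicate 2 in lane 2, XMP replicate 2 in lane 4 and the rest in lane 5. In GMP, lane and genotype therefore cannot be told apart.

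Promoter sequences are shown for 5 members on which the comparisons turn: Klf1 and Klf4, which stood at opposite ends of the GMP and MEP comparison, and Klf2, Klf3 and Klf9, which rose in deleted MEP. Each run holds the 250 bases before the RefSeq start of the gene, 5′ to 3′ on the gene's strand, in build GRCm38.p6. RefSeq windows were matched for 8 of the 10 members (all but Klf5 and Klf10). Capitals mark matches, on either strand, to motifs of RUNX, GATA, KLF and MEF2 factors. For RUNX the letters searched were TGTGGT and, as the other form, TGCGGT. For GATA they were AGATAA and the form ending in G, AGATAG, and those that begin with T, TGATAA and the form TGATAG. The KLF motif was CCNCNCCC, and MEF2 was searched by its usual consensus. Some matches of the KLF motif overlap each other.
Klf1, chr8:84901732-84901981, plus strand: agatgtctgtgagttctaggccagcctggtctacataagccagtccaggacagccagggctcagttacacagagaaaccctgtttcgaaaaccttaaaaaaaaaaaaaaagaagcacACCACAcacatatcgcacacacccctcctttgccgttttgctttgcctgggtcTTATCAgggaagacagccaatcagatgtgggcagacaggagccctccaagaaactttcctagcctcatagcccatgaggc
Klf2, chr8:72318812-72319061, plus strand: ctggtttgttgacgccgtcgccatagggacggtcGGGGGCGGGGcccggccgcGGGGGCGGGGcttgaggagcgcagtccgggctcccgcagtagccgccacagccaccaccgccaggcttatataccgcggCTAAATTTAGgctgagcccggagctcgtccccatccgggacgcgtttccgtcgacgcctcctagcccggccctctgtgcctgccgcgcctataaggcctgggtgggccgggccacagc
Klf3, chr5:64803271-64803520, plus strand: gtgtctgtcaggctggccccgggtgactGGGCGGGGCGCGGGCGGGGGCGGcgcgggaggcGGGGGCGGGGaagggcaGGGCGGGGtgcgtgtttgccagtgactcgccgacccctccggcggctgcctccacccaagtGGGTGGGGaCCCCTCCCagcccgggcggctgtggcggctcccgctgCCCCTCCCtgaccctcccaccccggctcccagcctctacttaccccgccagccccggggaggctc
Klf4, chr4:55532476-55532725, minus strand: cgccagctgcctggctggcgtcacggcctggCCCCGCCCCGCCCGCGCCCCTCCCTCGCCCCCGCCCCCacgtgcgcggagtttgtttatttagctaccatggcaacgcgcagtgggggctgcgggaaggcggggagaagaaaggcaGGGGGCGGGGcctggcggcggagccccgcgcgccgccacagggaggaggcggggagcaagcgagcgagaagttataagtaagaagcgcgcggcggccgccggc
Klf9, chr19:23140976-23141225, plus strand: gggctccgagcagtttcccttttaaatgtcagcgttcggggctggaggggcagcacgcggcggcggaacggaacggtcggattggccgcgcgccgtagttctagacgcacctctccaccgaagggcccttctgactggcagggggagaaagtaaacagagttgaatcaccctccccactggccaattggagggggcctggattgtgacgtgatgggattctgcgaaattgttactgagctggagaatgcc

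RUNX and GATA matches each lay in 1 of the 8 windows, that of Klf1. The RUNX match was 127 bases before the start and the GATA match 74 bases before it. Among all 32841 windows of this length, 18.6% held a RUNX match and 26.5% a GATA match. Neither motif was thus more frequent in the 8 windows than among all. KLF matches lay in 6 of 8 windows (not in Klf1 or Klf9), against 45.9% of all windows. There were 10 matches in Klf3, 9 in Klf4 and 4 in Klf2, some of which overlap. The Klf2 window held a palindromic MEF2 match 108 bases before the start. A MEF2 match of any form and place lay in 2.92% of all windows. GC content was 49.2% in the Klf1 window and 59.6% in that of Klf9. It was 71.2%, 78.4% and 74% in those of Klf2, Klf3 and Klf4, beside a median of 52.4% over all windows. A match is a description of letters and says nothing of binding.

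The family's make-up differed between the gates. The summed level of the 10 members was 51.1 and 55 RPKM in wild-type GMP, 51.5 and 54.6 RPKM in deleted GMP, 149.8 and 161 RPKM in wild-type MEP, 192 and 223 RPKM in deleted MEP, and 80.5 and 91.2 RPKM in XMP. Klf1 made up 3.11% to 10.1% of that sum in the 4 GMP libraries, 58.0% to 76.1% in the 4 MEP libraries and 31.8% and 36.2% in XMP. Klf13 led in every GMP library, and Klf1 led in every MEP and XMP library. Without Klf1, the remaining 9 members summed to 47.7 to 52.0 RPKM in GMP and 54.9 and 58.1 RPKM in XMP. In wild-type MEP those 9 summed to 38.6 and 56.5 RPKM, and in deleted MEP to 70.4 and 80.8 RPKM, above all other libraries. The second member in deleted MEP was Klf3, and in wild-type MEP it was Klf10.

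**Figure D1:**
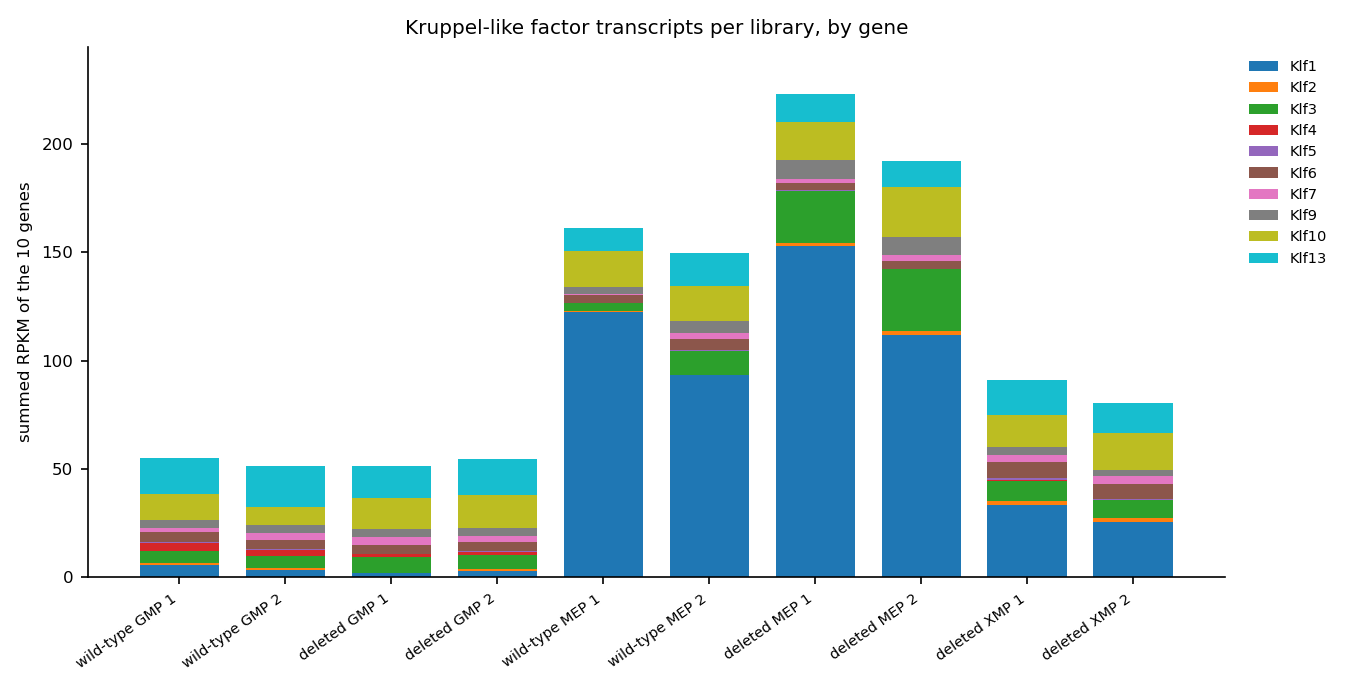
Stacked bars of the RPKM of the 10 Kruppel-like factor genes in each of the 10 libraries, with the gene given by colour and the summed RPKM on the vertical axis. Klf1 fills 58.0% to 76.1% of the bar in the MEP libraries, 31.8% and 36.2% in XMP and at most 10.1% in GMP.

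Klf1 and Klf4 separated wild-type GMP from wild-type MEP in opposite directions, and Klf10 was lower in GMP. Of the 9 members tested with limma, 3 passed an adjusted p under 0.05, which 21.6% of all tested genes did. Groups did not overlap for 5 of the 9, against 49.1% of all genes. The median log2 difference was 0.12 over the members and -0.06 over all genes. In these bulk samples, fewer cells of a type and less RNA per cell cannot be told apart.

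Klf1, the activator of the red cell programme, had 5.53 and 3.41 RPKM in wild-type GMP (4.47 ± 1.5, SD, n = 2) and 123 and 93.3 RPKM in wild-type MEP (108 ± 20.8, SD, n = 2). Both MEP libraries were far above both GMP libraries, and the means differed 24.2-fold. On the log2(RPKM + 1) scale, which understates changes of low genes, wild-type GMP was lower by 4.33 (log2 fold change -4.33 ± 0.26, SE, adjusted p = 5.17e-07). The call held in all 21 alternative analyses, with log2 fold changes of -4.62 to -4.05.

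Klf4, the monocyte regulator, had 3.56 and 2.69 RPKM in wild-type GMP (3.13 ± 0.613, SD, n = 2) and 0.0632 and 0.159 RPKM in wild-type MEP, where 7 and 22 reads lay behind the values. The ranges lay far apart, and the means differed 28.1-fold. The log2 fold change was 1.89 ± 0.15 (SE, adjusted p = 3.42e-06), and it held in all 20 alternatives that could give it. Monocyte genes moved the same way: of 13 tested genes of a list of KLF4 partners, targets and monocyte genes, 12 were higher in wild-type GMP and 0 lower, beside 11.7% and 9.83% of all genes. Among them were Ly6c2, a monocyte surface antigen (6.77 ± 0.30, adjusted p = 4.82e-08), Ly86 (4.91 ± 0.24, adjusted p = 1.01e-07), Irf8, a monocyte and dendritic cell regulator (4.48 ± 0.23, adjusted p = 1.5e-07), and Csf1r, the M-CSF receptor (4.49 ± 0.27, adjusted p = 4.91e-07).

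Klf10, an early response gene of TGF-beta, had 11.9 and 8.43 RPKM in wild-type GMP (10.1 ± 2.43, SD, n = 2) and 16.8 and 16.3 RPKM in wild-type MEP (16.5 ± 0.403, SD, n = 2). All GMP values were below all MEP values, by 1.63-fold in the means (log2 fold change -0.67 ± 0.20, SE, adjusted p = 0.0364). The call was lost in 10 of 21 alternatives. It did not survive leaving out wild-type GMP replicate 2 (-0.45, adjusted p = 0.271), nor either library of wild-type MEP, deleted GMP or XMP (adjusted p = 0.0522 to 0.0679).

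The remaining 6 tested members did not pass in wild-type cells. Klf13 stood at 16.6 and 18.6 RPKM in GMP and 10.6 and 15.2 RPKM in MEP (0.44 ± 0.20, SE, adjusted p = 0.153), the highest member of the GMP libraries. Klf2 stood at 0.995 and 0.660 RPKM in GMP and 0.469 and 0.279 RPKM in MEP (0.41 ± 0.21, SE, adjusted p = 0.205). Neither gene's groups overlapped. Klf3, Klf6, Klf7 and Klf9 overlapped between the gates, largely because the wild-type MEP libraries lay apart from each other. In wild-type MEP, replicate 1 was below replicate 2 for Klf3 (3.35 and 10.8 RPKM), Klf6 (3.29 and 5.13 RPKM), Klf7 (0.577 and 2.36 RPKM) and Klf9 (3.12 and 5.74 RPKM). That library is the one with the length trend of -0.94. Klf3, Klf6, Klf7 and Klf9 are 2314, 4217, 1334 and 3263 bp long. Klf7 is thus among the short genes of that measure, and the others lie between its short and long classes. The comparisons were repeated with the trend removed, but its part in the difference between these libraries was not tested. Klf3 is a case where 1 library sets the direction: GMP minus MEP was -0.14 ± 0.35 (SE, adjusted p = 0.846) with both MEP libraries, -0.86 (adjusted p = 0.00527) without replicate 1 and 0.58 (adjusted p = 0.0274) without replicate 2.

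**Figure D2:**
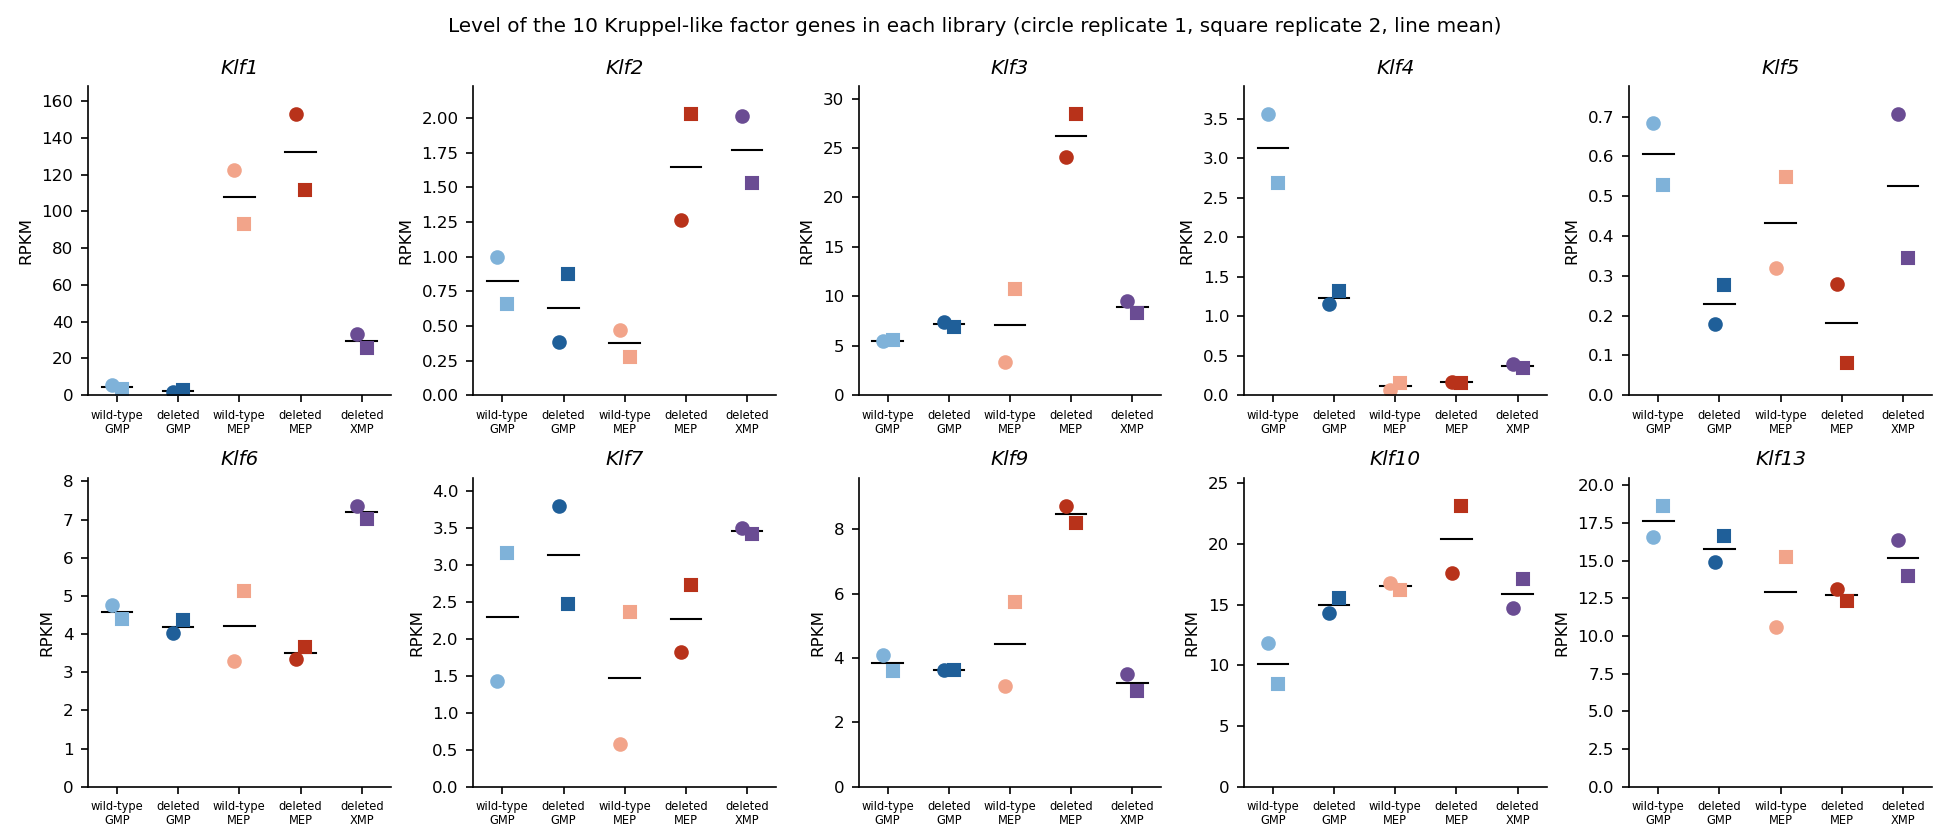
RPKM of each of the 10 members, 1 panel a gene with its own axis from 0, in the 5 groups; circles are replicate 1, squares replicate 2 and lines the mean of the 2. Klf1 is at 93.3 RPKM or more in all 4 MEP libraries and at 5.53 RPKM or less in all 4 GMP libraries, and XMP lies between at 25.6 and 33 RPKM.

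In GMP, loss of Runx1 went with less Klf4. Klf4 had 3.56 and 2.69 RPKM in wild-type GMP and 1.15 and 1.32 RPKM in deleted GMP (1.24 ± 0.115, SD, n = 2), with no overlap. The mean fell 2.53-fold (log2 fold change -0.88 ± 0.15, SE, adjusted p = 0.0049). It was the 1 member of 9 that passed, against 5.22% of all genes. Groups did not overlap for 5 of 9 members, against 66.6% of all genes. The call was lost with a pseudocount of 0.1 (-1.26, adjusted p = 0.0582) and without deleted GMP replicate 1 (-0.82, adjusted p = 0.0635). The median log2 fold change was -0.10 over the members and 0.05 over all genes.

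Some other monocyte genes were lower in deleted GMP as well. Of the 13 tested KLF4 and monocyte genes, 2 fell and 0 rose: Ly6c2 from 569 to 81.2 RPKM (-2.79 ± 0.30, SE, adjusted p = 0.0003) and Ly6c1 from 3.63 to 1.38 RPKM (-0.97 ± 0.17, SE, adjusted p = 0.00554). The background was 2.07% of all genes lower and 3.15% higher. The median log2 fold change was -0.09 over these 13 genes and 0.05 over all genes. Ly6c2 and Ly6c1 are related genes, and whether their reads were told apart was not tested. The 12 monocyte and dendritic cell markers, all in the table and none at 0 in all libraries, summed to 1011 and 1012 RPKM in wild-type GMP and to 305 and 409 RPKM in deleted GMP. Ly6c2 made up most of that difference, and 4 of the 11 markers tested passed, all lower. Markers of some other cell types were lower too: those of mast cells and basophils summed to 768 and 855 RPKM in wild-type and 399 and 420 RPKM in deleted GMP (5 of 11 tested lower, 1 higher). Neutrophil granule markers summed to 12144 and 12186 RPKM in wild-type and 7839 and 8110 RPKM in deleted GMP (3 of 11 tested lower, 0 higher). Megakaryocyte markers went the other way. They summed to 44.7 and 57.1 RPKM in wild-type and 138 and 167 RPKM in deleted GMP (4 of 12 tested higher, 0 lower). The part of these differences in that of Klf4 was not tested. Of 10 tested kinases and factors that act upstream of Klf2 and Klf4, Foxo1 rose in deleted GMP (0.83 ± 0.18, SE, adjusted p = 0.0232) and no other passed. Of 7 tested KLF2 target genes of leukocytes, Thbd (0.81 ± 0.20, adjusted p = 0.0427) was among those that rose and Itgb7 (-1.2 ± 0.22, adjusted p = 0.00902) fell, where Klf2 itself overlapped between the genotypes. Of 18 tested immediate early genes, Socs3 alone passed, and it rose from 1.03 to 7.83 RPKM (2.12 ± 0.21, adjusted p = 0.000183).

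Klf1 and Klf10 had groups without overlap in GMP and did not pass. Klf1 was at 5.53 and 3.41 RPKM in wild-type GMP and at 1.60 and 2.61 RPKM in deleted GMP, 2.12-fold lower in the means (-0.81 ± 0.26, SE, adjusted p = 0.108). It passed in some alternatives, among them quantile normalization (-1.02, adjusted p = 0.0176) and sample weights per group (-0.81, adjusted p = 0.0410). Klf10 was at 11.9 and 8.43 RPKM in wild-type GMP and at 14.3 and 15.6 RPKM in deleted GMP (0.53 ± 0.20, SE, adjusted p = 0.155), and it passed with sample weights per group (adjusted p = 0.0495). The log2 fold changes of Klf2, Klf3, Klf6, Klf7, Klf9 and Klf13 lay between -0.18 and 0.36 with adjusted p of 0.554 or more.

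Some red cell genes rose in deleted GMP, where Klf1 was not higher. Of 36 tested genes of a list of erythroid regulators and genes that need KLF1, 6 rose (3.15% of all genes did) and 1 fell. The 4 rises with the smallest p were those of Slc4a1, the red cell anion exchanger, from 0.0622 to 1.95 RPKM (1.47 ± 0.16, SE, adjusted p = 0.000283), and of the globin genes Beta-s (2.84 ± 0.34, adjusted p = 0.000666), Hba-a2 (2.94 ± 0.36, adjusted p = 0.000697) and Hba-a1 (2.88 ± 0.36, adjusted p = 0.000799). Hba-a1 and Hba-a2 are near-identical, as are Beta-s and Hbb-b1, so their separate levels are uncertain. Cd24a, a surface antigen, fell from 136 to 79.6 RPKM (-0.75 ± 0.19, adjusted p = 0.0472). Gata1 stayed within 7.94 to 11.6 RPKM in the 4 GMP libraries. The 12 erythroid markers, none at 0 in all libraries, summed to 74.6 and 112 RPKM in wild-type GMP and 446 and 739 RPKM in deleted GMP. Of the 12, 6 passed, all higher, and the globins carried most of the sum: the means of Beta-s were 41.3 and 303 RPKM, of Hba-a1 14.9 and 117 RPKM, of Hba-a2 13.8 and 115 RPKM and of Hbb-b1 2.48 and 23.6 RPKM.

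In MEP, loss of Runx1 went with more Klf3, Klf2 and Klf9, while Klf1 did not pass. These were 3 of 9 members, all higher, against 8% of all genes in either direction and 3.97% higher. Groups did not overlap for 4 of 9 members, against 42.6% of all genes. The median log2 fold change was 0.29 over the members and 0.03 over all genes.

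Klf3, the erythroid repressor, had 3.35 and 10.8 RPKM in wild-type MEP (7.07 ± 5.26, SD, n = 2) and 24.0 and 28.4 RPKM in deleted MEP (26.2 ± 3.10, SD, n = 2). Both deleted libraries were above both wild-type ones and above every other library of the series. The means differed 3.71-fold (log2 fold change 1.92 ± 0.35, SE, adjusted p = 0.0072). The size of the rise depended on the wild-type library: it was 1.2 (adjusted p = 0.00392) without wild-type MEP replicate 1 and 2.64 (adjusted p = 0.000118) without wild-type MEP replicate 2. In lanes 4 and 5 alone it was 1.2 (adjusted p = 0.0113), and with the length trend removed it was 1.94 (adjusted p = 0.00733). The call was lost without deleted MEP replicate 2 (1.81, adjusted p = 0.0621) and in a fit of only the groups compared (1.92, adjusted p = 0.0648).

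Klf2 had 0.469 and 0.279 RPKM in wild-type MEP (0.374 ± 0.134, SD, n = 2) and 1.27 and 2.03 RPKM in deleted MEP (1.65 ± 0.538, SD, n = 2). These values rest on 23 and 31 reads in wild-type and 86 and 156 reads in deleted libraries, and they do not overlap. The means differed 4.41-fold (log2 fold change 0.94 ± 0.21, SE, adjusted p = 0.0185). The call was lost without deleted MEP replicate 2 (0.73, adjusted p = 0.174), with sample weights per group (0.94, adjusted p = 0.292), in lanes 4 and 5 alone (1.03, adjusted p = 0.0721) and with no filter (0.94, adjusted p = 0.0602). On the recovered reads with voom, where low values are not damped by a pseudocount of 1, it was 2.15 (adjusted p = 0.0368).

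Klf9 had 3.12 and 5.74 RPKM in wild-type MEP (4.43 ± 1.85, SD, n = 2) and 8.73 and 8.20 RPKM in deleted MEP (8.47 ± 0.373, SD, n = 2), with no overlap. The means differed 1.91-fold (log2 fold change 0.85 ± 0.23, SE, adjusted p = 0.0456). This call stood on the edge of the threshold and was lost in 16 of 21 alternatives, among them 9 of the 10 that left out 1 library (all but wild-type MEP replicate 2; adjusted p = 0.0693 to 0.183). Without wild-type MEP replicate 1 the rise was 0.49 (adjusted p = 0.116), while leaving out wild-type MEP replicate 2 gave 1.2 (adjusted p = 0.00108).

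Klf1 had 123 and 93.3 RPKM in wild-type MEP and 153 and 112 RPKM in deleted MEP (132 ± 29.1, SD, n = 2). The ranges overlapped, and the log2 fold change was 0.29 ± 0.26 (SE, adjusted p = 0.548). Klf4 was low in all 4 MEP libraries, at 0.0632 to 0.167 RPKM from 7 to 22 reads. Klf6, Klf7, Klf10 and Klf13 had log2 fold changes between -0.19 and 0.50 with adjusted p of 0.433 or more. Of these 4, Klf10 alone had groups without overlap, at 16.8 and 16.3 RPKM in wild-type and 17.6 and 23.2 RPKM in deleted MEP.

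Erythroid genes rose in deleted MEP although Klf1 did not pass. Of the 36 tested erythroid genes, 15 rose and 0 fell, against 3.97% and 4.03% of all genes. Rhag, of the Rh complex of the red cell membrane, rose from 4.77 to 30.3 RPKM (2.45 ± 0.21, SE, adjusted p = 7.21e-05), and Ermap, a red cell membrane protein, from 30.8 to 106 RPKM (1.81 ± 0.31, adjusted p = 0.00489). Epb4.2, protein 4.2 of the membrane skeleton, rose from 0.445 to 2.55 RPKM (1.30 ± 0.13, adjusted p = 0.000173), and Cd24a from 65.3 to 242 RPKM (1.87 ± 0.19, adjusted p = 0.000166). The summed level of the 12 erythroid markers was 469 and 510 RPKM in wild-type MEP and 1134 and 1196 RPKM in deleted MEP. Of the 12, 8 passed, all higher, and the largest term was Aqp1, with means of 296 and 612 RPKM. The part of this difference in the rises of Klf3, Klf2 and Klf9 was not tested. Of the factors upstream of Klf2 and Klf4, Mef2c, which activates both, fell from 27.9 to 11.9 RPKM (-1.10 ± 0.28, SE, adjusted p = 0.0368). The part of Mef2c in the level of Klf2 was not tested. Of the 7 tested KLF2 targets, 0 rose and Cxcr4, a chemokine receptor, fell from 27.9 to 8.80 RPKM (-1.61 ± 0.28, adjusted p = 0.00502). Of the immediate early genes, Egr1 (-1.29 ± 0.22, adjusted p = 0.00465) and Btg2 (-0.81 ± 0.20, adjusted p = 0.0346) fell and Socs3 rose (1.15 ± 0.21, adjusted p = 0.00741).

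**Figure D3:**
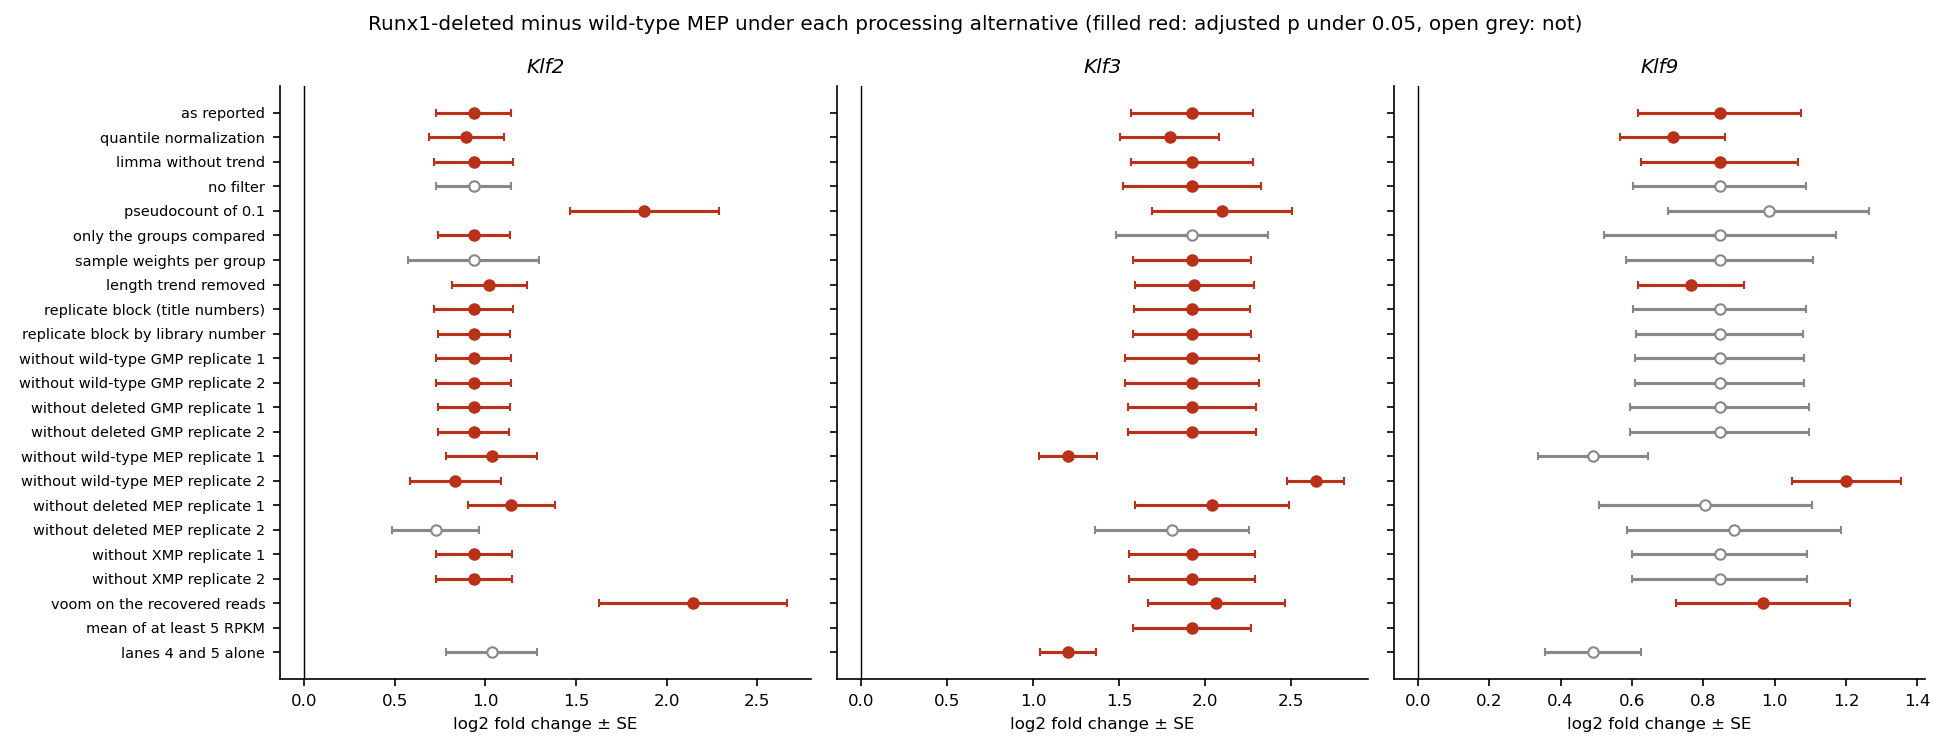
Log2 fold change of Klf2, Klf3 and Klf9 between deleted and wild-type MEP as reported and under each alternative analysis, with bars for the standard error; filled red points have an adjusted p under 0.05. Klf3 keeps the call in 20 of 22 alternatives, Klf2 in 17 of 21 and Klf9 in 5 of 21, and all points lie above 0.

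A difference between the Runx1 effects of the 2 gates was tested for each member, and 0 of 9 passed limma's adjusted p, against 1.74% of all genes (0.954% higher and 0.789% lower). Voom on the recovered reads also called 0 of the members. The largest were Klf3 (GMP effect minus MEP effect -1.60 ± 0.50, SE, adjusted p = 0.194), Klf2 (-1.11 ± 0.29, adjusted p = 0.105), Klf1 (-1.09 ± 0.37, adjusted p = 0.244), Klf4 (-0.94 ± 0.21, adjusted p = 0.0524) and Klf9 (-0.91 ± 0.32, adjusted p = 0.272). All 5 were more negative in GMP than in MEP. The median gate difference was -0.91 over the 9 members and 0.005 over all genes. In absolute size the medians were 0.91 and 0.21. The count depended on the analysis: 3 members passed with quantile normalization. Without wild-type MEP replicate 2 the Klf3 difference was -2.32. Over all genes, the number called for the gate difference was 190 as reported and 55 to 475 over the alternatives. As reported, the Runx1 effects of these 5 genes were not shown to differ between the gates, and some alternatives called a difference.

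XMP held an amount of Klf1 between the 2 other deleted groups. Klf1 had 33 and 25.6 RPKM in XMP (29.3 ± 5.29, SD, n = 2), 1.60 and 2.61 RPKM in deleted GMP and 153 and 112 RPKM in deleted MEP. The 3 ranges did not overlap. The XMP mean was 13.9-fold above that of deleted GMP (log2 fold change 3.29 ± 0.26, SE, adjusted p = 4.36e-06) and 4.52-fold below that of deleted MEP (-2.13 ± 0.26, SE, adjusted p = 0.00102). Both calls held in all 22 alternatives. In contrast, Gata1 stood at 105 and 123 RPKM in XMP and 120 and 127 RPKM in deleted MEP, where the ranges overlapped. The 12 megakaryocyte markers, none at 0 in all libraries, summed to 1578 and 1972 RPKM in XMP, 138 and 167 RPKM in deleted GMP and 750 and 893 RPKM in deleted MEP, and their part in the Klf1 level was not tested.

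The other members did not share 1 order of the 3 deleted groups. Against deleted GMP, 4 of 9 members passed (3 higher, 1 lower), against 19.7% of all genes, and groups did not overlap for 6 of 9, against 66%. Against deleted MEP, 4 of 9 passed (1 higher, 3 lower), against 7.74% of all genes, and groups did not overlap for 8 of 9, against 53.8%. The median log2 difference of the members was 0.13 and 0.07 in the 2 comparisons, beside 0.05 in each over all genes. The 2 comparisons share the XMP libraries and are not independent.

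Klf4 stood in XMP at 0.40 and 0.339 RPKM (0.370 ± 0.0433, SD, n = 2), from 51 and 45 reads. This was 3.34-fold below deleted GMP at 1.15 and 1.32 RPKM (-0.71 ± 0.15, SE, adjusted p = 0.0051), and the call was lost without deleted GMP replicate 2 (-0.65, adjusted p = 0.05196). Deleted MEP, at 0.167 and 0.155 RPKM, was below XMP without overlap, but the difference did not pass (0.24 ± 0.15, SE, adjusted p = 0.444). Klf4 in XMP thus lay nearer to deleted MEP than to deleted GMP, in RPKM and on the log2(RPKM + 1) scale.

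Klf2 stood in XMP at 2.01 and 1.53 RPKM (1.77 ± 0.343, SD, n = 2), overlapping deleted MEP at 1.27 and 2.03 RPKM. Against deleted GMP, at 0.381 and 0.871 RPKM, it was 2.83-fold higher (0.78 ± 0.21, SE, adjusted p = 0.0194). The call was lost without deleted GMP replicate 1 (0.56, adjusted p = 0.215), without XMP replicate 1 (0.65, adjusted p = 0.143) and with no filter (0.78, adjusted p = 0.0568). With Klf4 low and Klf2 high, the level of Klf2 was 4.51 and 5.03 times that of Klf4 in XMP, 0.330 and 0.661 times in deleted GMP and 7.59 and 13.1 times in deleted MEP.

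Klf3 and Klf9 did not share the high level of deleted MEP. Klf3 stood in XMP at 9.52 and 8.27 RPKM (8.89 ± 0.885, SD, n = 2), against 24.0 and 28.4 RPKM in deleted MEP, 2.95-fold lower (-1.46 ± 0.35, SE, adjusted p = 0.0292). Klf9 stood at 3.49 and 2.97 RPKM (3.23 ± 0.367, SD, n = 2), against 8.73 and 8.20 RPKM, 2.62-fold lower (-1.17 ± 0.23, SE, adjusted p = 0.0106). Both were within 1.24-fold of deleted GMP in the means and did not pass there. The Klf3 call was lost without any 1 of the wild-type GMP, deleted MEP or XMP libraries (adjusted p = 0.0648 to 0.158), and the Klf9 call without any 1 of the deleted MEP or XMP libraries (adjusted p = 0.0551 to 0.0896). With the length trend removed both passed (Klf3 -1.46, adjusted p = 0.021; Klf9 -1.21, adjusted p = 0.000941). Over all 10 libraries Klf3 and Klf9 correlated at r = 0.885 on the log2 scale, the highest among the 36 pairs of tested members, as a description of points that share libraries and groups.

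Klf6 was the member whose XMP level stood above both other deleted groups by the test. It had 7.37 and 7.01 RPKM in XMP (7.19 ± 0.254, SD, n = 2), 4.02 and 4.37 RPKM in deleted GMP and 3.33 and 3.66 RPKM in deleted MEP. Both XMP libraries were above all other libraries of the series, wild type included. The difference was 1.71-fold from deleted GMP (0.66 ± 0.20, SE, adjusted p = 0.0389) and 2.06-fold from deleted MEP (0.87 ± 0.20, SE, adjusted p = 0.0229). The first call was lost in 8 of 10 fits that left out 1 library (all but the wild-type MEP libraries; adjusted p = 0.0562 to 0.241), and the second without any 1 of the deleted libraries (adjusted p = 0.0511 to 0.154). Klf6 belongs to the genes that many stimuli, cell handling among them, induce rapidly. The 25 immediate early genes measured beside it summed to 138 and 142 RPKM in XMP, 116 and 150 RPKM in deleted GMP and 83.8 and 93.3 RPKM in deleted MEP. In wild-type cells they summed to 110 and 165 RPKM in GMP and 111 and 175 RPKM in MEP. Their part in the Klf6 difference was not tested. Of 18 immediate early genes tested, 4 were higher in XMP than in deleted MEP and 0 lower, against 5.14% and 2.6% of all genes. Among them were Btg2 (1.04 ± 0.20, adjusted p = 0.0111), Nr4a1 (0.69 ± 0.15, adjusted p = 0.0167) and Zfp36 (1.12 ± 0.27, adjusted p = 0.0294). Against deleted GMP, 4 were higher, with Egr1 first (1.57 ± 0.22, adjusted p = 0.000316), and 1, Fosl2, was lower (-1.0 ± 0.22, adjusted p = 0.00604), against 9.75% and 9.9% of all genes.

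Klf5, Klf7, Klf10 and Klf13 gave no call in XMP. Klf5, which was not tested, was listed at 0.706 and 0.346 RPKM in XMP and at 0.0822 to 0.279 RPKM in the 4 other deleted libraries, from 6 to 51 reads. In wild-type cells it was at 0.684 and 0.528 RPKM in GMP and 0.319 and 0.549 RPKM in MEP. Klf7 stood at 3.51 and 3.42 RPKM in XMP, inside the range of deleted GMP at 3.81 and 2.47 RPKM and above deleted MEP at 1.83 and 2.73 RPKM. Klf10 stood at 14.7 and 17.1 RPKM in XMP, and Klf13 at 16.4 and 14.0 RPKM. Over all 10 libraries, Klf13 ranged from 10.6 to 18.6 RPKM and Klf10 from 8.43 to 23.2 RPKM.

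**Figure D4:**
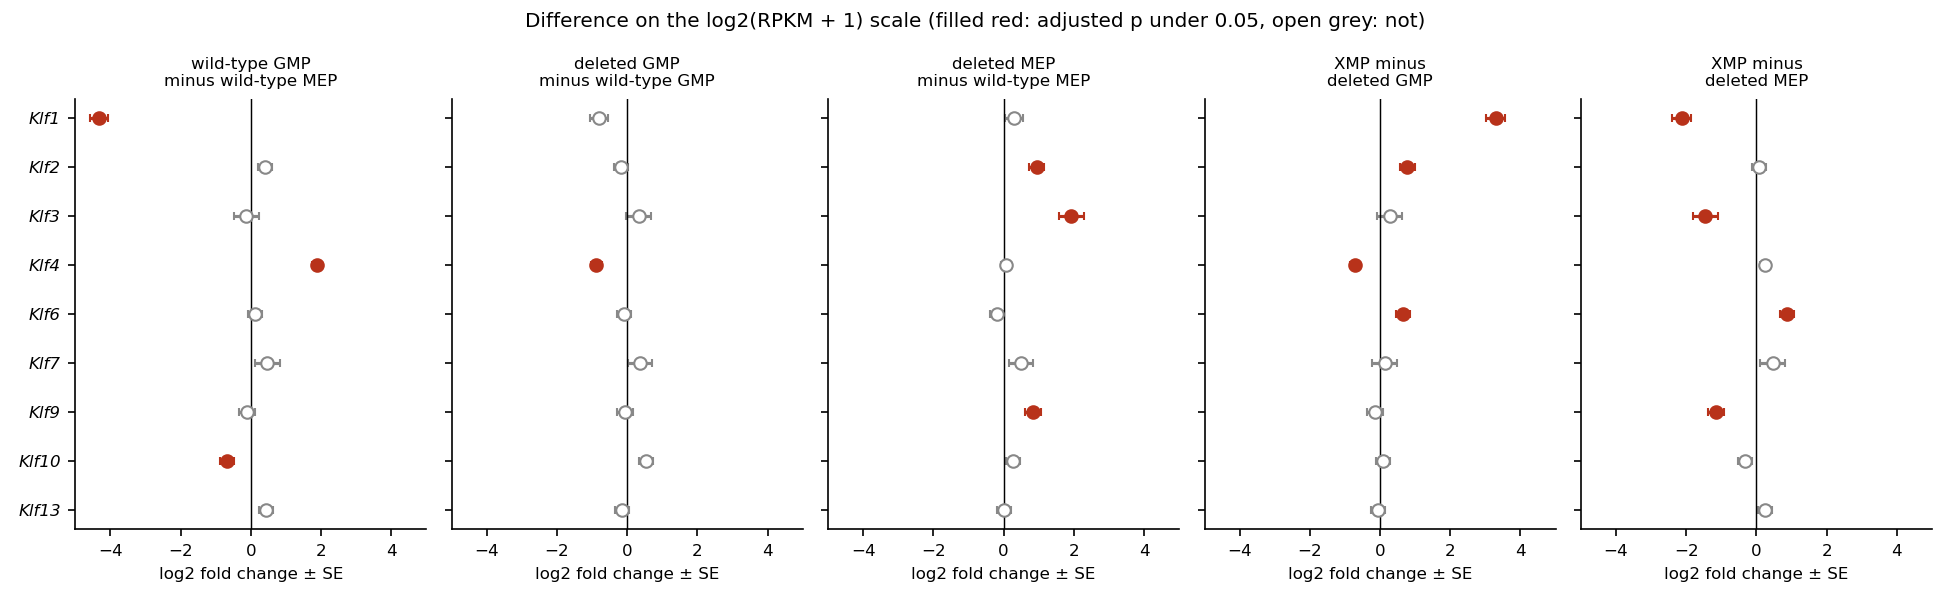
Log2 fold change with its standard error on the log2(RPKM + 1) scale for the 9 tested members in 5 comparisons, 1 panel each; filled red points have an adjusted p under 0.05 and open grey points do not. Klf1 spans the widest range, from -4.33 between the wild-type gates to 3.29 between XMP and deleted GMP.

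The erythroid genes showed a split in XMP. Of the 36 tested, 21 were higher in XMP than in deleted GMP and 0 lower, against 9.75% and 9.9% of all genes. The leading ones were Aqp1, a water channel (4.80 ± 0.25, adjusted p = 2.64e-07), Gata1 (3.47 ± 0.22, adjusted p = 7.44e-07), the erythropoietin receptor Epor (2.51 ± 0.16, adjusted p = 8.73e-07) and the regulator Tal1 (1.98 ± 0.17, adjusted p = 7.96e-06). Against deleted MEP, 5 were higher and 15 lower, against 5.14% and 2.6% of all genes.

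The 4 with the smallest p among those lower in XMP than in deleted MEP, as Klf1 was, encode surface proteins. Rhag was at 3.69 and 30.3 RPKM in the 2 groups (-2.76 ± 0.21, adjusted p = 9.53e-05), Kel, a blood group antigen, at 1.36 and 13.1 RPKM (-2.58 ± 0.20, adjusted p = 9.53e-05), Ermap at 6.42 and 106 RPKM (-3.90 ± 0.31, adjusted p = 0.000109) and Cd24a at 52.4 and 242 RPKM (-2.19 ± 0.19, adjusted p = 0.000151). The 5 higher ones were Slc4a1 (1.47 ± 0.16, adjusted p = 0.000449), the heme synthesis enzyme Alas2 (1.46 ± 0.25, adjusted p = 0.00482) and the globins Hba-a2 (1.88 ± 0.36, adjusted p = 0.00932), Hba-a1 (1.85 ± 0.36, adjusted p = 0.0104) and Beta-s (1.59 ± 0.34, adjusted p = 0.0172). The mean level in XMP lay between the 2 other deleted groups for 21 of the 36 genes, above both for 12 and below both for 3. In the means, these globin genes did not follow the order of Klf1 across the 3 deleted groups. The 12 erythroid markers summed to 1038 and 1900 RPKM in XMP, so the 2 XMP libraries differed in them, while their Klf1 values were 25.6 and 33 RPKM.

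**Figure D5:**
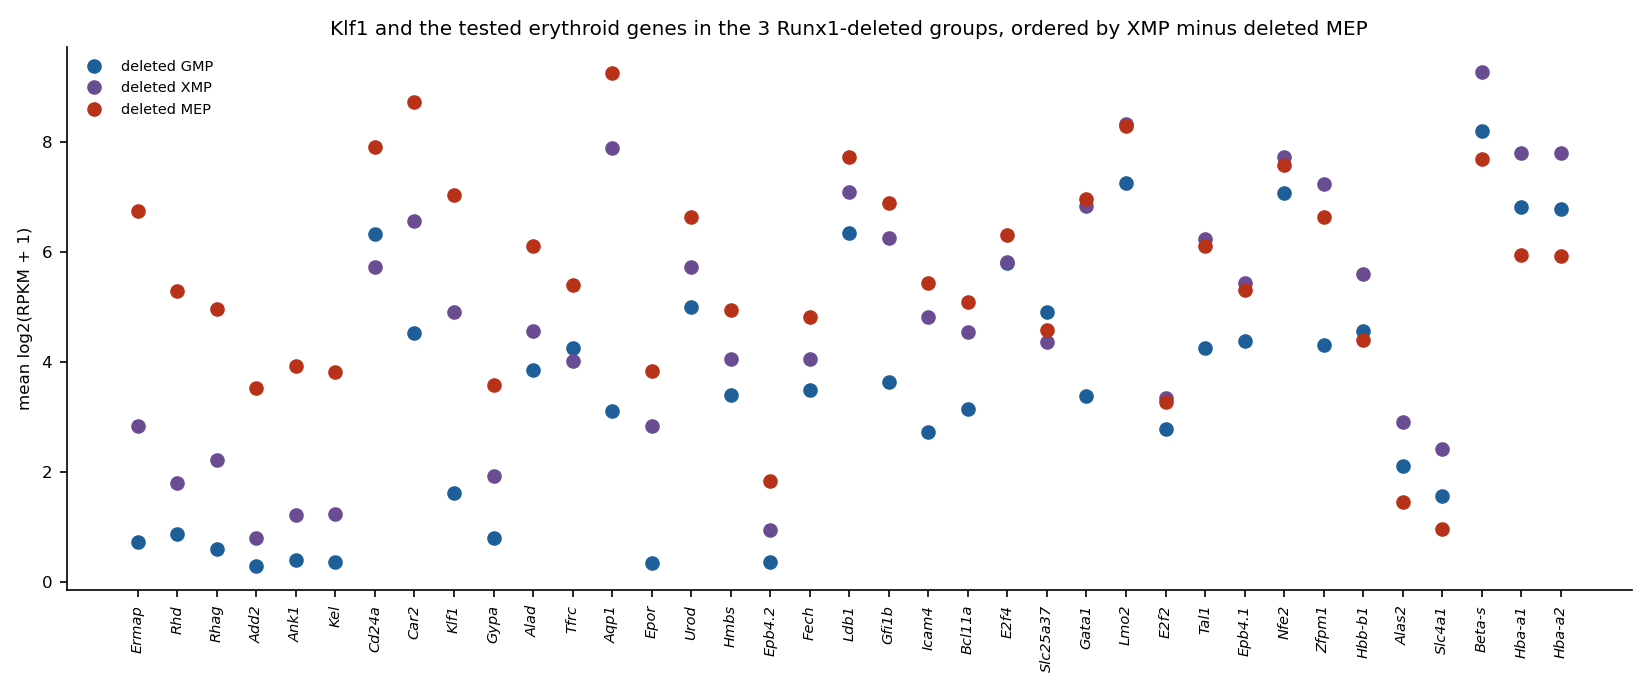
Mean log2(RPKM + 1) of Klf1 and the 36 tested erythroid genes in deleted GMP, XMP and deleted MEP (2 libraries each), ordered by XMP minus deleted MEP from left to right. XMP lies between the 2 other groups for 21 of the 36 genes, and the 5 genes at the right end, Alas2, Slc4a1 and the globins Beta-s, Hba-a1 and Hba-a2, lie above both.

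Few partners and regulators of the family passed. Of 18 corepressors and coactivators of KLF proteins tested, such as Ctbp1, Sin3a and Ep300, none passed in 5 of the 6 comparisons, and Fhl3, a LIM-domain partner of KLF3, was higher in XMP than in deleted MEP (12.1 and 5.41 RPKM, 1.03 ± 0.27, adjusted p = 0.0421). None of the 11 tested ubiquitin ligases and deubiquitinases of KLF proteins passed in any of the 6. Of 7 tested KLF and SP factors outside the members (16 were in the table), Sp2 was higher (0.70 ± 0.21, adjusted p = 0.0326) and Sp4 lower (-0.81 ± 0.25, adjusted p = 0.0431) in wild-type GMP than in wild-type MEP, and none passed in the other 5 comparisons. The share of all genes that passed was 5.22% and 8% for Runx1 in GMP and MEP and 1.74% for the gate difference. It was 19.7% and 7.74% for XMP against deleted GMP and deleted MEP, and 21.6% between the wild-type gates. Of all genes, 5.14% were higher in XMP than in deleted MEP, so Fhl3 as 1 of 18 was near that share.

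Mef2c differed in XMP: at 37.7 RPKM it was above deleted GMP at 10.9 RPKM (1.70 ± 0.28, adjusted p = 0.00113) and deleted MEP at 11.9 RPKM (1.59 ± 0.28, adjusted p = 0.00652). KLF2 targets of leukocytes went both ways between XMP and deleted GMP, with S1pr1, the sphingosine phosphate receptor of lymphocyte egress, higher (1.49 ± 0.20, adjusted p = 0.000257), S1pr4 higher (0.70 ± 0.17, adjusted p = 0.011), and Cxcr4 (-2.29 ± 0.28, adjusted p = 0.000109) and Il6ra (-2.03 ± 0.29, adjusted p = 0.000399) among those lower. Of the 13 KLF4 and monocyte genes, 10 were lower and 0 higher in XMP than in deleted GMP, against 9.9% and 9.75% of all genes. Compared with deleted MEP, 6 were higher and 0 lower, against 5.14% and 2.6%. Irf8, for example, was at 4.9 RPKM in XMP, 93.8 RPKM in deleted GMP (-3.99 ± 0.23, adjusted p = 3.86e-07) and 1.88 RPKM in deleted MEP (1.03 ± 0.23, adjusted p = 0.0188). The 12 monocyte and dendritic cell markers summed to 38.3 and 49.9 RPKM in XMP, 305 and 409 RPKM in deleted GMP and 20.5 and 22.5 RPKM in deleted MEP. Of 17 tested genes of TGF-beta signalling, the pathway that induces Klf10, none passed for Runx1 in either gate. The share of all genes that passed there was 5.22% in GMP and 8% in MEP, so few calls were to be had among 17. In XMP, 4 of the 17 were higher and 2 lower than in deleted GMP, against 9.75% and 9.9% of all genes, led by the co-receptor Tgfbr3 (3.74 ± 0.28, adjusted p = 2.57e-06) and Tgif1 (-1.28 ± 0.23, adjusted p = 0.00171).

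Genes whose pattern over the 10 libraries was most like that of a member were named for the 4 most abundant members, by Pearson's r of log2(RPKM + 1). For Klf1 they were Blvrb, a biliverdin reductase (r = 0.992), Rab4a (r = 0.992) and Nqo1 (r = 0.991). For Klf3 they were Wdr7 (r = 0.978), Trak2 (r = 0.975) and Klhl23 (r = 0.970), for Klf10 Gin1 (r = 0.987), Wdr6 (r = 0.979) and Zfp956 (r = 0.960), and for Klf13 Dnajc3 (r = 0.970), Actr2 (r = 0.970) and Slc35a5 (r = 0.958). Blvrb had 15.9 and 13.7 RPKM in wild-type and deleted GMP, 164 and 226 RPKM in wild-type and deleted MEP and 62.1 RPKM in XMP. These are descriptions over libraries that share 5 groups.

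The authors' deposited table, from Baggerley's test, listed fewer members. Its FDR-corrected p-value for Klf1 was 7.49e-10 between XMP and deleted GMP and 3.17e-08 between XMP and deleted MEP, and it was listed at 0 between the wild-type gates. For Klf3 the authors' deposited table gave 0.0343 between deleted and wild-type MEP and 0.00738 between XMP and deleted MEP. For Klf2 and Klf9 between deleted and wild-type MEP the authors' deposited table gave 1, and for Klf4 between the wild-type gates 0.357. Of the 10 members, 0 passed 0.05 between deleted and wild-type GMP in the authors' deposited table. For XMP, 1 member passed against deleted GMP and 2 against deleted MEP. The calls made here for Klf2, Klf4 and Klf6 against deleted GMP did not pass in that table. Nor did those for Klf6 and Klf9 against deleted MEP.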

How the data were processed

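Libraries came from total RNA with either of 2 kits, unrecorded per library, per the labels' protocols. The authors deposited RPKM for 23240 genes in 10 libraries and, per the file headers, p-values and FDR-corrected p-values of Baggerley's test. Reads were placed on mm9, per the submitters' processing notes; the sources used here do not name the aligner or the counter.

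Here, log2(RPKM + 1) of 10905 genes (1 RPKM or more in 2 libraries or more) was fitted with limma 3.58.1 (R 4.3.3; lmFit, eBayes with trend) on all 10 libraries with a mean for each group (5 residual degrees of freedom). P-values were adjusted by Benjamini-Hochberg over all 10905 genes, and genes under 0.05 were called. Reads were worked back from the RPKM steps (10905 of 10905 genes whole within 0.02 read; tested on simulated data, 1841 of 1841 gene lengths right), and limma's voom on them was an alternative chosen after seeing the data. Replicates correlated at r = 0.968 to 0.994, and 55.8% to 80.9% of genes differed between them beyond counting noise, so none is a duplicate. Alternatives are in the closing section.

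The 10 members and the lists were chosen with earlier results of these data known. Named were all members, up to 4 called genes of each list in each direction with the smallest p, called KLF and SP factors, and the 3 genes most correlated with each member of at least 5 RPKM on average; the text prints a selection of these. Some list genes are not reported here.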

Additional observations from a re-analysis of the deposited data

How the results depend on the processing

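The analysis was repeated with quantile normalization, without limma's trend, with no filter, for genes averaging at least 5 RPKM, with a pseudocount of 0.1, on only the groups compared, with sample weights per group, on lanes 4 and 5 alone (no wild-type GMP library lies in them, so comparisons with that group have no value), with the length trend removed, with replicate blocks, without each library in turn and with voom. Over the members' fold changes, 1018 kept direction and side of the threshold, 68 lost the threshold, 19 gained it and 26 changed sign, of members that had not passed. Of these 26, Klf3 between wild-type GMP and MEP alone passed after the change, from -0.14 to 0.58 without wild-type MEP replicate 2 (and -0.86 without replicate 1). With 1 library left out, the others ranged, between wild-type GMP and MEP, from -0.14 to 0.38 (Klf6), -0.079 to 1.012 (Klf7) and -0.48 to 0.23 (Klf9). For Runx1 in GMP they ranged from -0.398 to 0.040 (Klf2), -0.028 to 0.75 (Klf7) and -0.14 to 0.011 (Klf9). For Runx1 in MEP they ranged from -0.448 to 0.067 (Klf6), -0.050 to 1.04 (Klf7; -0.050 also in lanes 4 and 5 alone) and -0.244 to 0.243 (Klf13; 0.0011 with a pseudocount of 0.1). For the gate difference they ranged from -0.17 to 0.35 (Klf6), -0.68 to 0.41 (Klf7) and -0.394 to 0.093 (Klf13). From deleted GMP to XMP they ranged from -0.11 to 0.36 (Klf7), -0.020 to 0.18 (Klf10) and -0.163 to 0.054 (Klf13), and from deleted MEP to XMP from -0.13 to 0.28 (Klf2; -0.092 with quantile normalization). Where an arm was left with 1 library, that library was assumed to vary like the other groups. Of the members, 1 passed for Runx1 in GMP. This became 2 with quantile normalization, 3 with sample weights, 0 with a pseudocount of 0.1, 0 with a mean of at least 5 RPKM and 0 to 1 with 1 library left out. In MEP 3 passed, and 1 with no filter, with the mean of 5 RPKM, with only the groups compared, sample weights or lanes 4 and 5 alone, and 0 to 4 with 1 library left out. For the gate difference 0 passed, 3 with quantile normalization, 1 with no filter, 2 with the length trend removed and 0 to 3 with 1 library left out. Between XMP and deleted GMP 4 passed, 2 with no filter, 1 with a mean of at least 5 RPKM and 2 to 4 with 1 library left out. Between XMP and deleted MEP 4 passed, 1 with no filter, 2 with a mean of at least 5 RPKM and 1 to 4 with 1 library left out. Between the wild-type gates 3 passed, and 2 to 5 with 1 library left out. The mean filter removes low members by construction, and for the other changes the cause was not tested. Over all genes the number called ranged from 196 to 2023 for Runx1 in GMP and from 219 to 3427 in MEP.

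Libraries of different groups share only a number: their deviations correlated at -0.475 to 0.782 by title number and at -0.147 to 0.782 by library number. With the replicate number of the titles as a block, 1 member passed in GMP, 2 in MEP, 0 for the gate difference, 3 and 4 for XMP against deleted GMP and deleted MEP, and 3 between the wild-type gates. With library numbers as the block the counts were 2, 2, 1, 4, 4 and 3, and Klf1 passed for Runx1 in GMP (-0.81, adjusted p = 0.00747) and for the gate difference (-1.09, adjusted p = 0.0216).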
